A study of Homo sapiens with 27 samples.

Results

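The mRNA of 9 cell surface antigens was followed: FOLH1, STEAP1, STEAP2, PSCA, CD276, ERBB2, ERBB3, EPCAM and CEACAM5, which are 9 of the 20987 genes in the table of normalised counts. They were taken by gene symbol because their proteins are targets of antibodies, drug conjugates, radioligands or engineered T cells in prostate and other carcinomas, and all 9 symbols had a row. The study sequenced RNA of 3 prostate cancer cell lines of human origin in 27 libraries. LNCaP is labelled androgen sensitive, and 22Rv1 and LNCaP95 are labelled castration resistant. LNCaP95 was derived from LNCaP by culture without androgen, and 22Rv1 comes from an unrelated xenograft. Each line received the vehicle DMSO or IPI-9119, which blocks fatty acid synthase (FASN, the enzyme that makes palmitate), at 100 nM or 500 nM for 6 days, which makes 9 groups of 3 libraries. The medium stayed on the cells over the 6 days, and cells were pelleted together with their conditioned medium before RNA extraction. Nothing in the labels says that replicates came from separate cultures, and p-values therefore measure only library-to-library spread, which could be technical. Each line is 1 line and not a sample of tumours, and protein at the cell surface was not measured here.

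A surface antigen is useful as a target when tumour cells carry much more of it than normal tissue, and its density on the cell limits how much of a drug is delivered. FOLH1 encodes prostate-specific membrane antigen, a glutamate carboxypeptidase that is high in prostate epithelium and known to be repressed by androgen signalling, and STEAP1 and STEAP2 belong to a family of multi-pass membrane proteins linked to the reduction of iron and copper. ERBB2 and ERBB3 are partner receptors of the epidermal growth factor receptor family, CD276 (B7-H3) is an immune checkpoint relative, EPCAM is an epithelial adhesion molecule, and PSCA and CEACAM5 are held in the membrane by a GPI anchor.

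The libraries held 14757874 to 26578881 reads in genes, and a value of 1 read was worth 0.757 to 1.39 normalised counts. No pair of replicates agreed within sampling noise. The luminal epithelial markers KRT8, KRT18 and HOXB13 had mean normalised counts of 11106, 14689 and 5864 in LNCaP with DMSO, 14055, 14405 and 4833 in 22Rv1, and 14879, 11223 and 4844 in LNCaP95. The 4 basal markers summed to at most 19.6 in DMSO libraries. With DMSO the stromal sums spanned 266 to 310 (LNCaP), 270 to 308 (22Rv1) and 628 to 908 (LNCaP95), and in LNCaP95 COL1A1 (mean 735) made up most of the sum. In the same order the immune sums spanned 10.99 to 27.5, 15.6 to 41.3 and 87.3 to 112, and PTPRC had means of 0 in LNCaP, 3.93 in 22Rv1 and 86.2 in LNCaP95. The 22Rv1 mean of PTPRC (1.32, 1.20 and 9.28) rested mostly on DMSO replicate 3. That library had 18444 genes above 0, against 14863 to 15962 in every other library. It is a control in each comparison of 22Rv1 with DMSO. Endothelial markers summed to 197 to 314 in LNCaP, all of it VWF, and to at most 14.4 in the other lines. VWF in 22Rv1 with DMSO was 2.64, 2.41 and 13.4, again highest in replicate 3. PECAM1 was at 0 in all 9 groups. Neuroendocrine markers summed to 1215 to 1314 in 22Rv1 with DMSO, 244 to 360 in LNCaP95 and 7.58 to 16.2 in LNCaP. FASN itself, the target of the drug, had mean normalised counts of 37649 in LNCaP, 45480 in 22Rv1 and 38706 in LNCaP95 with DMSO, and of 164912, 144591 and 76740 with 500 nM. In LNCaP replicate 1 was far above the other replicates in each group. FASN there was 54998, 29273 and 28676 with DMSO, 227517, 51994 and 45537 with 100 nM, and 234767, 133676 and 126294 with 500 nM.

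With DMSO, 8 of the 9 antigens were expressed in the 3 lines and CEACAM5 was close to or at 0. Per kilobase of the longest coding transcript, a scale on which genes can be compared, FOLH1 was the highest antigen in LNCaP with 14196 normalised counts per kb and STEAP1 came next with 8790. EPCAM followed with 2432, STEAP2 with 1914, ERBB2 with 1636, ERBB3 with 687, CD276 with 453 and PSCA with 42.9. On this scale STEAP1 led in 22Rv1 with 4565 per kb. FOLH1 (1924 per kb) and EPCAM (1820 per kb) lay next to each other there and did not differ beyond the spread of the 3 libraries. In LNCaP95 the order began with FOLH1 (5161 per kb), EPCAM (4406 per kb) and STEAP1 (3519 per kb), and CD276 came after them with 928 per kb. The scale depends on the transcript chosen: over the median coding transcript, ERBB3 led in 22Rv1 with 5613 per kb ahead of STEAP1 (4565). In LNCaP95 CD276 (5031) then came second after FOLH1 (5792), ahead of EPCAM (4964) and STEAP1 (3519), and in LNCaP STEAP2 (5954) moved ahead of EPCAM (2740).

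**Figure D1:**
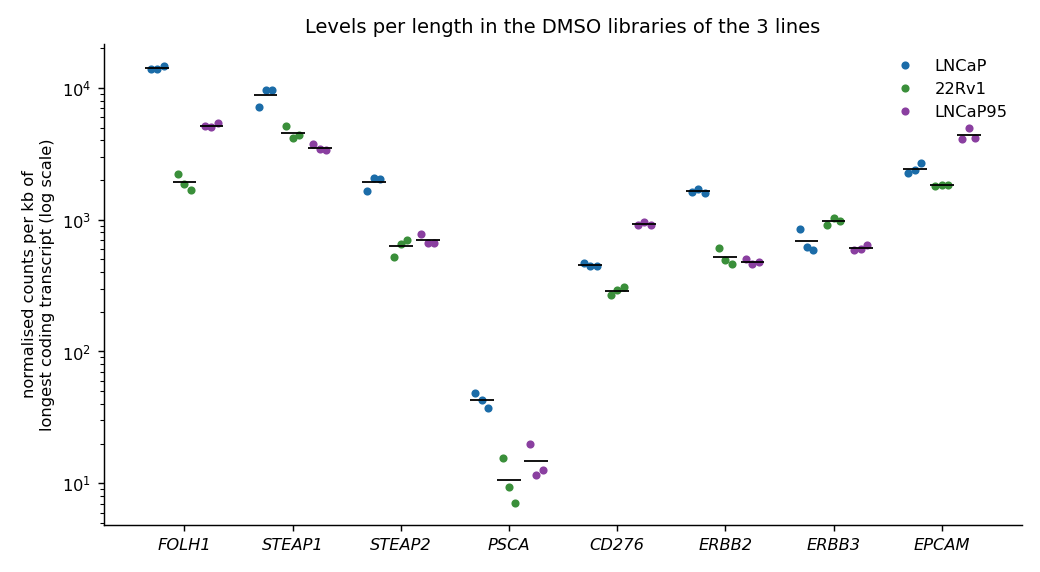
Normalised counts per kb of the longest coding transcript (log axis) of 8 antigens in the DMSO libraries of LNCaP, 22Rv1 and LNCaP95; dots are libraries and bars are means of 3. FOLH1 spans 1924 to 14196 per kb between lines, ERBB3 608 to 974, and PSCA lies below 50 in every line.

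The untreated lines were compared to see how the antigens differ between the androgen-sensitive line and the castration-resistant ones. In LNCaP the prostate antigens were highest: FOLH1 was 7.38-fold higher than in 22Rv1 and 2.75-fold higher than in LNCaP95, and ERBB2 was 3.14-fold and 3.41-fold higher. LNCaP95 instead had the most CD276 and EPCAM, and 22Rv1 the most ERBB3. Of the 8 antigens tested, 8 were called different between 22Rv1 and LNCaP (7 lower in 22Rv1, 1 higher), 7 between LNCaP95 and LNCaP (5 lower in LNCaP95, 2 higher) and 5 between LNCaP95 and 22Rv1 (3 higher in LNCaP95, 2 lower). Among all genes tested, 74.8%, 66.5% and 76.1% were called in these comparisons, so differing between the lines was also the rule for other genes. The test was limma on log2(value + 1) with Benjamini-Hochberg adjustment over all genes, and a call is an adjusted p under 0.05.

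FOLH1 in the DMSO libraries was 37775, 37477 and 39604 in LNCaP, 13759, 13513 and 14485 in LNCaP95, and 5994, 5056 and 4520 in 22Rv1. The 3 lines did not overlap, and LNCaP95 lay between the other two. The log2 difference was -2.89 ± 0.129 (standard error) for 22Rv1 against LNCaP (adjusted p = 6.07e-16), -1.46 ± 0.129 for LNCaP95 against LNCaP (adjusted p = 4.94e-10) and 1.43 ± 0.129 for LNCaP95 against 22Rv1 (adjusted p = 3.30e-10), all by limma. FOLH1 has a near-identical relative, FOLH1B, which is not analysed here, and reads of both may share the FOLH1 row.

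STEAP1 with DMSO was 9391, 12550 and 12682 in LNCaP, 6738, 5501 and 5741 in 22Rv1, and 4887, 4540 and 4435 in LNCaP95. STEAP2 was 11545, 14595 and 14242 in LNCaP, 3632, 4603 and 4966 in 22Rv1, and 5449, 4710 and 4694 in LNCaP95. Both genes were highest in LNCaP, in each of its 3 libraries, although LNCaP DMSO replicate 1 was below the other 2 for both. STEAP1 was lower in LNCaP95 than in 22Rv1 (-0.37 ± 0.1, adjusted p = 0.00184), whereas STEAP2 was not called between these lines (0.18, 95% interval -0.14 to 0.50, adjusted p = 0.301), by limma. STEAP1 shares sequence with STEAP1B, whose row held single to double digits of normalised counts in LNCaP (mean 17.2 with DMSO) and 22Rv1 (12.6).

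ERBB2, the receptor without a ligand of its own, was 7702, 8134 and 7684 in LNCaP, 2935, 2349 and 2208 in 22Rv1, and 2411, 2221 and 2275 in LNCaP95. It was lower in both castration-resistant lines than in LNCaP (-1.66 ± 0.0964 in 22Rv1, adjusted p = 9.33e-14; -1.77 ± 0.0964 in LNCaP95, adjusted p = 7.18e-14, limma). Between 22Rv1 and LNCaP95 it was not called (-0.11, 95% interval -0.31 to 0.09). Its partner ERBB3, which has a weak kinase and binds neuregulins, ran in another order: 5435, 6125 and 5734 in 22Rv1 against 5048, 3650 and 3502 in LNCaP and 3474, 3550 and 3769 in LNCaP95. ERBB3 was higher in 22Rv1 than in LNCaP (0.52 ± 0.104, adjusted p = 8.63e-05) and lower in LNCaP95 than in 22Rv1 (-0.68 ± 0.104, adjusted p = 2.54e-06) by limma. Between LNCaP95 and LNCaP it was not called (-0.16, adjusted p = 0.188), and without LNCaP DMSO replicate 3 it was (-0.26, adjusted p = 0.0482, limma). Exons of ERBB2 overlap MIEN1 and PGAP3 on the opposite strand, and the sources used here do not give the strand setting of the counts.

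CD276 and EPCAM went the other way in LNCaP95. CD276 with DMSO was 3178, 3345 and 3137 in LNCaP95, 1635, 1542 and 1541 in LNCaP, and 926, 1009 and 1067 in 22Rv1, 3 levels with no overlap. EPCAM was 7029, 8527 and 7231 in LNCaP95, 3868, 4105 and 4602 in LNCaP, and 3121, 3156 and 3135 in 22Rv1, again in 3 separate ranges. CD276 was 2.05-fold and EPCAM 1.81-fold higher in LNCaP95 than in LNCaP (log2 1.03 ± 0.0786, adjusted p = 3.26e-11, and 0.86 ± 0.0832, adjusted p = 2.68e-09, limma), and the ratios to 22Rv1 were 3.22 and 2.42.

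PSCA and CEACAM5 were the low members. PSCA was 49.6, 43.6 and 37.98 in LNCaP, 15.8, 9.63 and 7.22 in 22Rv1, and 20.2, 11.7 and 12.9 in LNCaP95 with DMSO, so every LNCaP library was above every library of the other lines. CEACAM5 had 0 reads in all 9 LNCaP95 libraries, and 3 counts over these libraries, the limit that a count of 0 allows, come to 0.0166 CPM (counting error only). It had 8 reads in the 9 LNCaP libraries and 24 in the 9 22Rv1 libraries. CEACAM5 failed the filter of 10 normalised counts in at least 3 libraries in every comparison, which is why 8 of 9 members were tested. PSCA passed in each line, in 22Rv1 with values near the filter.

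**Figure D2:**
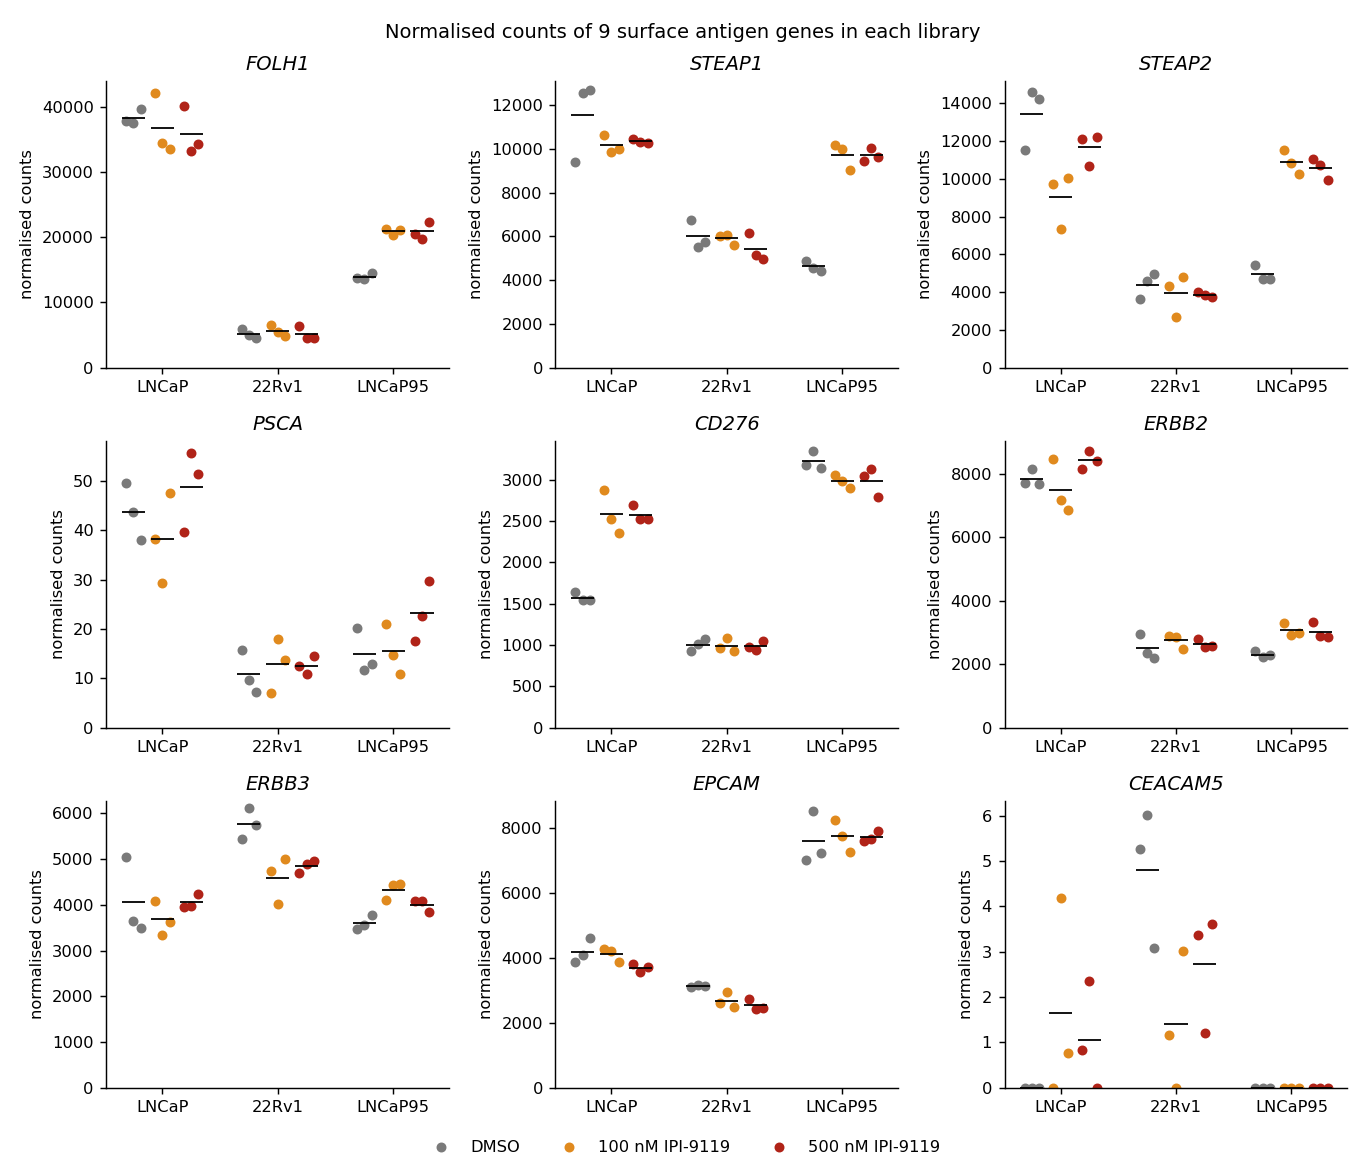
Normalised counts (y axis, from 0) of each antigen in all 27 libraries, grouped by line and coloured by DMSO, 100 nM or 500 nM IPI-9119; bars are means of 3. In LNCaP95 the treated libraries of FOLH1, STEAP1 and STEAP2 lie above all DMSO libraries, and in LNCaP those of CD276 do.

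The first drug comparison asked how the antigens respond to FASN inhibition in LNCaP95. FOLH1, STEAP1, STEAP2 and ERBB2 rose with 500 nM, STEAP1 and STEAP2 by over 2-fold, and none of the 8 antigens tested was called lower. With 100 nM the same 4 genes and ERBB3 rose. These are 4 and 5 of 8 members, beside 52.3% of all genes tested at 500 nM and 52.3% at 100 nM, so the share of members called is near that of other genes. Over the 8 members the median log2 fold change at 500 nM was 0.49, against 0.03 over all genes tested. The 2 doses share their 3 DMSO libraries, and their likeness is therefore not a repeat.

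FOLH1 in LNCaP95 was 13759, 13513 and 14485 with DMSO, 21295, 20320 and 21046 with 100 nM, and 20433, 19794 and 22386 with 500 nM. All 6 treated libraries lay above the 3 DMSO libraries. The rise was 1.50-fold at 500 nM (log2 0.58 ± 0.082, adjusted p = 6.32e-05) and 1.50-fold at 100 nM (0.59 ± 0.082, adjusted p = 5.95e-05, limma), and 14.7% of genes tested had a higher log2 fold change at 500 nM. The treated mean of 20871 at 500 nM was 54.5% of the DMSO mean of LNCaP.

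STEAP1 was 4887, 4540 and 4435 with DMSO, 10160, 10000 and 9041 with 100 nM, and 9458, 10030 and 9609 with 500 nM. STEAP2 was 5449, 4710 and 4694 with DMSO, 11557, 10852 and 10259 with 100 nM, and 11081, 10756 and 9935 with 500 nM. For both genes the lowest treated library was above the highest DMSO library by more than the whole range of either group. STEAP1 rose 2.10-fold at 500 nM (log2 1.07 ± 0.0743, adjusted p = 3.33e-07) and STEAP2 2.14-fold (1.10 ± 0.0836, adjusted p = 5.81e-07, limma). Among all genes tested, 4.97% and 4.64% had a higher log2 fold change. At 500 nM their means in LNCaP95 were 93.8% (STEAP1) and 90.7% (STEAP2) of those in LNCaP at the same dose, where the STEAP1 libraries of the 2 lines still did not overlap and the STEAP2 libraries did.

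STEAP1 and STEAP2 are neighbours on chromosome 7, with 0 coding genes between them in the RefSeq annotation of GRCh38.p14. Because both rose in LNCaP95, the 300 bases around their annotated starts are shown, with matches to 5 short motifs in capitals. The windows hold 250 bases before and 50 after the start (plus strand, RefSeq, GRCh38.p14). Moving together was not particular to this pair. Pearson's r of deviations from the line means over the 27 libraries was 0.82 for STEAP1 with STEAP2. For FOLH1 it was 0.83 with STEAP1, 0.60 with STEAP2 and 0.78 with ERBB2. In LNCaP at 100 nM, STEAP2 was called lower and STEAP1 was not called. STEAP1 lies at chr7:90154219-90154518, and STEAP2 has 2 entries, at chr7:90211490-90211789 and chr7:90213570-90213869.
STEAP1: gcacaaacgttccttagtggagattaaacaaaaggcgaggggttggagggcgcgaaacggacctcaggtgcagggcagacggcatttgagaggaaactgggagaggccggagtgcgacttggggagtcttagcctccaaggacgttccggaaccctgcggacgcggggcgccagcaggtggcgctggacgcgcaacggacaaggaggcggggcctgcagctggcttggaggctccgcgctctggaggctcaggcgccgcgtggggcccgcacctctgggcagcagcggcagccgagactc
STEAP2, first entry: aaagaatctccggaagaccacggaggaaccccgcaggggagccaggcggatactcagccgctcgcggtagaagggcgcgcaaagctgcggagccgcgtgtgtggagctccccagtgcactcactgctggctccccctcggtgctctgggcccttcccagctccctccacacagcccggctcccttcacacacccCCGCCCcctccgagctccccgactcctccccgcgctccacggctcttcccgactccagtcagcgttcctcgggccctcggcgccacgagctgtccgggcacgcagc
STEAP2, second entry: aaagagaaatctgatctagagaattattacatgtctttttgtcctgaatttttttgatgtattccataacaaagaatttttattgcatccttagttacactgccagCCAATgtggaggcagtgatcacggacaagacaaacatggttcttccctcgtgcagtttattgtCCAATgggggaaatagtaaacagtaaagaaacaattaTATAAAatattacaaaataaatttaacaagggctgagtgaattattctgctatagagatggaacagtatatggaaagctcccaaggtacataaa
The 5 motifs reported, searched on both strands, were the sterol response element TCACNCCAC, the E-box CACGTG, the CCAAT box CCAAT, the GC box GGGCGG and the TATA box TATAAA. In all 34943 promoters of the RefSeq table they occur in 1.12%, 7.23%, 34.6%, 44.9% and 11.6%. The STEAP1 window held a match to 0 of the 5, the first STEAP2 entry held 1 GC box (capitals CCGCCC, on the minus strand), and the second held 2 CCAAT boxes and 1 TATA box. The STEAP2 windows also differ in composition, with 70.3% and 33.7% G and C, against 66.7% for STEAP1 and a median of 58.7% over all promoters. Letters that are absent from these windows say nothing of what binds elsewhere.

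ERBB2 in LNCaP95 was 2411, 2221 and 2275 with DMSO, 3300, 2930 and 2991 with 100 nM, and 3338, 2885 and 2845 with 500 nM. The treated libraries lay above the DMSO libraries at both doses. The rise was 1.31-fold at 500 nM (0.39 ± 0.0789, adjusted p = 0.00106) and 1.33-fold at 100 nM (0.42 ± 0.0789, adjusted p = 0.000658, limma). PGAP3, which overlaps ERBB2 on the opposite strand and acts in GPI anchor maturation, went from a mean of 127 to 263 normalised counts at 500 nM (1.04 ± 0.125, adjusted p = 1.76e-05, limma). MIEN1, the other gene that overlaps it, went from 1533 to 1746 and was not called (0.20 ± 0.101, adjusted p = 0.115, limma). ERBB2 itself went from 2302 to 3023, and the part of overlapping reads in this rise was not tested.

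ERBB3 in LNCaP95 was 3474, 3550 and 3769 with DMSO, 4106, 4432 and 4462 with 100 nM, and 4074, 4092 and 3851 with 500 nM. Its treated libraries were all above its DMSO libraries, at 500 nM by a narrow margin. ERBB3 rose with 100 nM (0.27 ± 0.0672, adjusted p = 0.00457) and was not called with 500 nM (0.16 ± 0.0672, adjusted p = 0.0681, limma). With the replicate number as a block, it was called at 500 nM as well (0.16, adjusted p = 0.0264).

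CD276, EPCAM and PSCA were not called in LNCaP95 at either dose. CD276 was 3178, 3345 and 3137 with DMSO and 3049, 3132 and 2787 with 500 nM, a small gap between the groups, with a difference of -0.11 and a 95% interval from -0.25 to 0.04. EPCAM was 7029, 8527 and 7231 with DMSO and 7602, 7674 and 7911 with 500 nM, a difference of 0.03 (95% interval -0.15 to 0.21). PSCA was 20.2, 11.7 and 12.9 with DMSO and 17.5, 22.6 and 29.7 with 500 nM, and its interval of -0.10 to 1.33 includes both no change and a doubling. PSCA rests on low counts in this line.

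In LNCaP95 the replicate 2 libraries of the treated groups had 7.56% (100 nM) and 6.92% (500 nM) of reads in mitochondrially encoded genes, and the remaining 7 had between 1.78% and 3.75%. Without all replicate 2 libraries, a choice made after the data were seen, the log2 changes at 500 nM were 0.60 for FOLH1, 1.03 for STEAP1, 1.05 for STEAP2 and 0.40 for ERBB2, about as large as with them. Bulk RNA cannot tell more RNA per cell from a larger share of cells that carry it. Of the luminal markers, KRT8 was 13981 to 16036 with DMSO and 16987 to 19359 with 500 nM, KRT18 10505 to 12049 and 12396 to 13237, and HOXB13 4740 to 4935 and 3538 to 4342. Their part in these results was not tested.

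In LNCaP the antigens responded otherwise: CD276 rose at both doses, STEAP2 fell at 100 nM, and FOLH1, STEAP1 and ERBB2 were not called. At 500 nM 1 of 8 members was called and at 100 nM 2 of 8, beside 20.8% and 25.3% of all genes tested. With single libraries left out these shares ran from 11.6% (without DMSO replicate 3) to 30.4% (without DMSO replicate 1) at 500 nM, and from 13.6% to 36.1% without the same libraries at 100 nM. The members' median log2 fold change at 500 nM was -0.04, against -0.01 over all genes.

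CD276 in LNCaP was 1635, 1542 and 1541 with DMSO, 2880, 2523 and 2349 with 100 nM, and 2689, 2519 and 2525 with 500 nM. Every treated library was above every DMSO library, by more than the range within any group. The rise was 1.64-fold at 500 nM (0.71 ± 0.0883, adjusted p = 0.000324) and 1.64-fold at 100 nM (0.71 ± 0.0883, adjusted p = 0.000378, limma), and 8.28% of genes tested had a higher log2 fold change at 500 nM. Treated LNCaP thereby reached 2577 normalised counts, below the 2989 of LNCaP95 at the same dose. Sums of the stromal markers (COL1A1, COL1A2, COL3A1, DCN) were 266 to 310 with DMSO and 423 to 608 with 500 nM, those of the endothelial markers (PECAM1, CDH5, VWF) 197 to 314 and 352 to 361, and those of the immune markers (PTPRC, CD3E, CD68, LYZ) 10.99 to 27.5 and 65.8 to 77.8. Called higher with 500 nM were COL3A1 (17.5 to 142, log2 2.94), COL1A1 (271 to 395, 0.52), VWF (251 to 355, 0.53) and CD68 (19.4 to 71.8, 1.92), whereas COL1A2, DCN, PECAM1, CDH5, PTPRC and CD3E were at 0 in all 3 libraries. Epithelial markers were called in the same comparison. KRT8 was higher (11106 to 17496, log2 0.66) and HOXB13 lower (5864 to 4420, -0.40). The basal marker KRT14 was lower too (-2.18), in a list that summed to at most 19.6 with DMSO. The part of all these marker genes in the CD276 result was not tested.

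CD276 has 2 annotated starts on chromosome 15, and the first is shown because CD276 is the antigen that rose in LNCaP and its window is dense in GC boxes (chr15:73684133-73684432, plus strand, RefSeq, GRCh38.p14, motif matches in capitals).
CD276, first entry: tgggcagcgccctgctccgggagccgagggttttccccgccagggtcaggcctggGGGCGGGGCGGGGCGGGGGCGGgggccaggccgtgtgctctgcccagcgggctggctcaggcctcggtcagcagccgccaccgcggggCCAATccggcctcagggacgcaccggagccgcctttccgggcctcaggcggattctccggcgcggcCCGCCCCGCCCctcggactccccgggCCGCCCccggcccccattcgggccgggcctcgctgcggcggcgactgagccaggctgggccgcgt
This window held 7 matches to the GC box, some of them overlapping or adjacent, and 1 CCAAT box, with 80.3% G and C. At least 1 GC box occurs in 44.9% of all promoters, and the share with several was not counted. Any part of these matches in the rise of CD276 was not tested. The second entry, further downstream, held 2 GC boxes. Neither held the sterol response element as spelled out above.

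STEAP2 in LNCaP was 11545, 14595 and 14242 with DMSO, 9708, 7373 and 10035 with 100 nM, and 12136, 10670 and 12212 with 500 nM. The 100 nM libraries lay below both other groups without overlap, while DMSO and 500 nM overlapped. STEAP2 fell at 100 nM (-0.58 ± 0.133, adjusted p = 0.0101) and was not called at 500 nM (-0.20 ± 0.133, adjusted p = 0.309, limma). The difference between the doses, 0.38 with a 95% interval from 0.09 to 0.67, was not called either (adjusted p = 0.379, limma).

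STEAP1 in LNCaP was 9391, 12550 and 12682 with DMSO, 10606, 9858 and 9992 with 100 nM, and 10435, 10328 and 10272 with 500 nM. DMSO replicate 1 was the lowest of all 9 libraries and the other 2 DMSO replicates were the highest. STEAP1 was not called (-0.14 at 500 nM, adjusted p = 0.391, and -0.17 at 100 nM, adjusted p = 0.278). Without DMSO replicate 1 it was called lower at 500 nM (-0.29, adjusted p = 0.0224) and at 100 nM (-0.31, adjusted p = 0.0124), by limma.

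FOLH1, ERBB2, ERBB3, EPCAM and PSCA were not called in LNCaP. FOLH1 was 37775, 37477 and 39604 with DMSO and 40167, 33177 and 34257 with 500 nM (-0.10, 95% interval -0.36 to 0.16). ERBB2 was 7702, 8134 and 7684 with DMSO and 8146, 8696 and 8397 with 500 nM, just above them without overlap (0.10, 95% interval -0.10 to 0.30). EPCAM was 3868, 4105 and 4602 with DMSO and 3821, 3563 and 3714 with 500 nM, just below (-0.18, 95% interval -0.37 to 0.01). The groups of ERBB3 (0.02, -0.27 to 0.30) and PSCA (0.15, -0.37 to 0.67) overlapped.

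In 22Rv1 no antigen was called at either dose, beside 6.97% of all genes tested at 500 nM and 6.55% at 100 nM by limma. With single libraries left out the 500 nM share ran from 2.84% (without 500 nM replicate 2) to 5.13% (without DMSO replicate 1). The 100 nM share ran from 1.92% (without 100 nM replicate 1) to 8.72% (without 100 nM replicate 3). EPCAM and ERBB3 had an unadjusted p under 0.05 at each dose (2 of 8). By edgeR 0 were called at either dose, and by DESeq2 1 at each. EPCAM was 3121, 3156 and 3135 with DMSO, 2617, 2958 and 2495 with 100 nM, and 2743, 2437 and 2460 with 500 nM, so all 6 treated libraries were below the DMSO libraries. Its log2 difference was -0.30 ± 0.0924 at 500 nM (adjusted p = 0.0691) and -0.23 ± 0.0924 at 100 nM (adjusted p = 0.172, limma). DESeq2 called EPCAM lower at 500 nM (-0.29, adjusted p = 0.0331).

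ERBB3 in 22Rv1 was 5435, 6125 and 5734 with DMSO, 4742, 4025 and 5005 with 100 nM, and 4698, 4895 and 4967 with 500 nM, again with no overlap between treated and DMSO libraries. The differences were -0.33 ± 0.0979 at 100 nM (adjusted p = 0.0658) and -0.25 ± 0.0979 at 500 nM (adjusted p = 0.155, limma). Without 100 nM replicate 3 it was called lower at that dose (-0.40, adjusted p = 0.0281), and DESeq2 called it too (-0.32, adjusted p = 0.0439). FOLH1 was 5994, 5056 and 4520 with DMSO and 6392, 4507 and 4470 with 500 nM (-0.03, 95% interval -0.37 to 0.31). STEAP1 (-0.15, -0.38 to 0.09), STEAP2 (-0.18, -0.58 to 0.22), CD276 (-0.02, -0.24 to 0.20), ERBB2 (0.09, -0.16 to 0.34) and PSCA (0.25, -0.66 to 1.15) had overlapping groups at 500 nM. For PSCA, at mean values of 10.9 and 12.6, the interval spans more than a doubling.

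**Figure D3:**
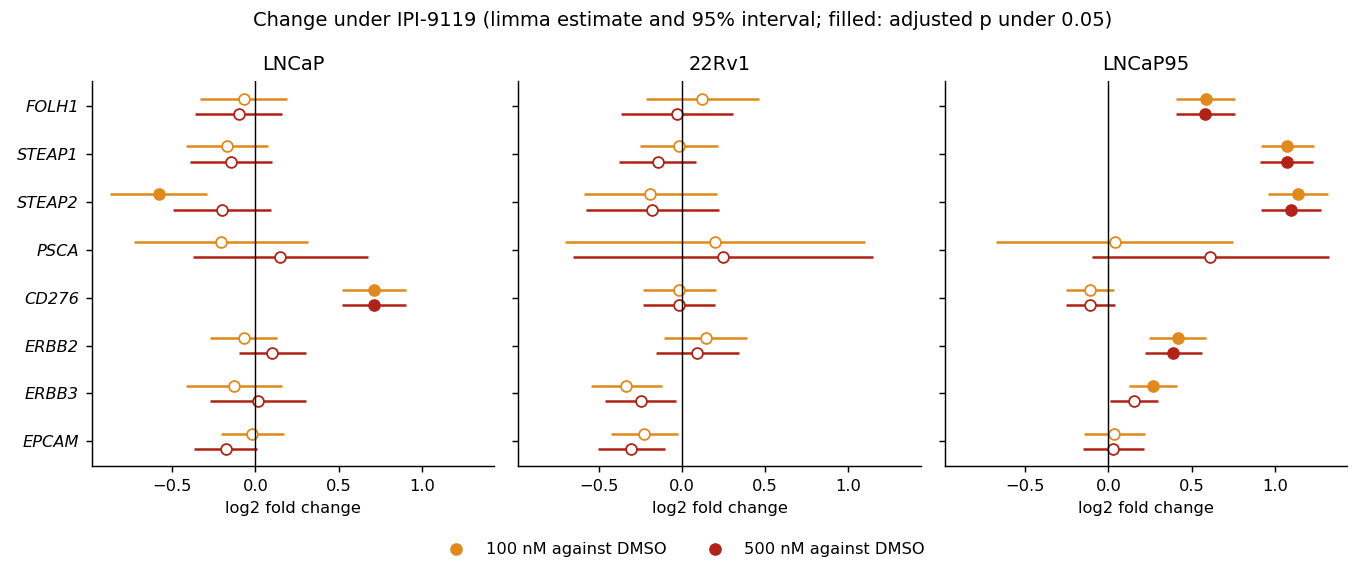
Log2 fold change of 8 antigens against DMSO at 100 nM (orange) and 500 nM (red) in each line, as the limma estimate with its 95% interval; filled points have an adjusted p under 0.05. In LNCaP95 the filled points are FOLH1, STEAP1, STEAP2 and ERBB2 at both doses and ERBB3 at 100 nM, in LNCaP CD276 at both doses and STEAP2 at 100 nM, and in 22Rv1 none.

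The doses were then set against each other to see whether 500 nM did more than 100 nM. No antigen was called in any line: 0 of 8 in LNCaP, beside 0.00779% of all genes (1 gene), and 0 of 8 in 22Rv1 and in LNCaP95, where limma called 0% and 0% of all genes. At an unadjusted p under 0.05 the members numbered 1 in LNCaP (STEAP2), 0 in 22Rv1 and 0 in LNCaP95, and edgeR and DESeq2 called none of them. Over all genes, an unadjusted p under 0.05 was reached by 1463 in LNCaP, 152 in 22Rv1 and 95 in LNCaP95. By edgeR 1 gene was called in LNCaP and by DESeq2 93, and both called 0 in the other lines. The LNCaP count by limma was 67 without 100 nM replicate 1, 37 in the fit of all 27 libraries and 762 with replicates 2 and 3 only. For STEAP1 and STEAP2 in LNCaP95 the intervals between the doses ran from -0.16 to 0.16 and from -0.22 to 0.14.

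Whether the 500 nM effect itself differed between the lines was tested as an interaction in 1 fit of all 27 libraries. The effects on FOLH1, STEAP1 and STEAP2 were larger in LNCaP95 than in either other line, and the effect on CD276 was larger in LNCaP than in either other line. Against LNCaP, the LNCaP95 effect was higher by 0.68 ± 0.18 for FOLH1 (adjusted p = 0.00415), by 1.21 ± 0.142 for STEAP1 (adjusted p = 4.95e-07) and by 1.30 ± 0.219 for STEAP2 (adjusted p = 5.30e-05, limma). Against 22Rv1 the differences for these 3 genes were 0.61, 1.22 and 1.28 (adjusted p = 0.0148, 3.71e-06 and 0.000208, limma). The CD276 effect was lower than in LNCaP by -0.82 ± 0.114 in LNCaP95 (adjusted p = 4.76e-06) and by -0.73 ± 0.114 in 22Rv1 (adjusted p = 9.20e-05, limma).

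ERBB3 (0.40, adjusted p = 0.0480) and EPCAM (0.33, adjusted p = 0.0416, limma) were also called different between LNCaP95 and 22Rv1, close to the threshold. Both calls were lost in edgeR (adjusted p = 0.0590 and 0.0541). Of 12 single libraries left out in turn, 11 ended the ERBB3 call (all but 22Rv1 DMSO replicate 1, adjusted p up to 0.112) and 10 the EPCAM call (all but 22Rv1 500 nM replicate 1 and LNCaP95 DMSO replicate 2, adjusted p up to 0.111, limma). For ERBB2, called in LNCaP95 and in neither other line, the difference in effect did not pass the threshold against LNCaP (0.29, adjusted p = 0.100) or 22Rv1 (0.30, adjusted p = 0.117, limma). With the replicate block both differences were called (adjusted p = 0.0396 and 0.0470, limma). The difference from LNCaP was also called in the fit of the groups compared alone (adjusted p = 0.0426), and that from 22Rv1 with equal totals (0.36, adjusted p = 0.0358, limma). In all, 1 of 8 members was called for 22Rv1 against LNCaP, 4 of 8 for LNCaP95 against LNCaP and 5 of 8 for LNCaP95 against 22Rv1, beside 14.3%, 38.9% and 25.4% of all genes. ERBB3 was also called for 22Rv1 against LNCaP without LNCaP DMSO replicate 1 (-0.43, adjusted p = 0.0147), which makes that count 2.

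**Figure D4:**
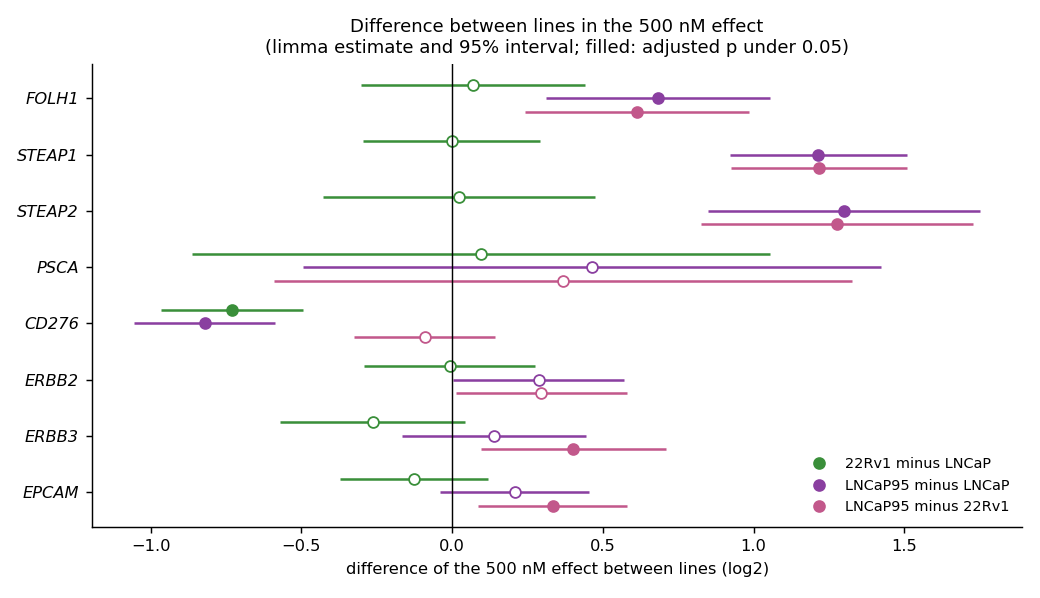
Difference of the 500 nM effect between lines (log2, x axis) for 8 antigens, as the limma interaction estimate with its 95% interval; filled points have an adjusted p under 0.05. STEAP1 and STEAP2 stand at 1.21 to 1.30 for LNCaP95 minus each other line, and CD276 at -0.82 and -0.73 relative to LNCaP.

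Genes around the antigens were described by lists drawn from textbook knowledge. The counts called in each list stand beside 20.8% of all genes tested at 500 nM in LNCaP, 6.97% in 22Rv1 and 52.3% in LNCaP95. Close relatives of the antigens moved with both signs in LNCaP95. Of 6 relatives tested there, 1 rose and 3 fell at 500 nM. STEAP3, the endosomal ferrireductase of the STEAP family, fell from a mean of 983 to 491 (-0.999 ± 0.0836, adjusted p = 1.15e-06), opposite to STEAP1 and STEAP2. LY6E, of the same family as PSCA, fell by 0.95 on the log2 scale, and ICOSLG, a B7 relative of CD276, by 0.72, while NAALADL2, a relative of FOLH1 named after its values were seen, rose by 0.57 (limma). In LNCaP 0 of 11 relatives were called at 500 nM by limma (3 at an unadjusted p under 0.05, 0 by edgeR or DESeq2), and in 22Rv1 0 of 13 (2 unadjusted, 0 by edgeR and 1 by DESeq2).

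Genes of iron and copper reduction and uptake moved in LNCaP95 with both signs, 5 rising and 2 falling of 10 tested at 500 nM (median 0.19, against 0.03 over all genes). The ferritin light chain FTL rose from 3425 to 7849 (1.20 ± 0.0669, adjusted p = 1.08e-07, limma) and the copper transporter SLC31A1 from 1065 to 2152 (1.02 ± 0.101). In LNCaP, 3 rose and 1 fell of 10, led by the metal transporter SLC39A8 (1.38 ± 0.139) and the transferrin receptor TFRC (1.04 ± 0.197), and in 22Rv1 1 of 11, the ferritin heavy chain FTH1 (0.61 ± 0.148), rose.

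Around ERBB2 and ERBB3, 9 rose and 3 fell of 16 ligands, partners and brakes tested in LNCaP95 at 500 nM (median 0.41). ERRFI1, an inhibitor of the receptor kinases, rose from 580 to 1016 (0.81 ± 0.0735, adjusted p = 2.03e-06), PIK3R1, a regulatory subunit of PI3-kinase, rose by 0.79, and RNF41, a ubiquitin ligase that lowers ERBB3 protein, by 0.48 (limma). In LNCaP 3 rose and 2 fell of 17. The risers were PIK3R3 (1.38 ± 0.177) and the ligands NRG4 (13.1 to 36.7, 1.43 ± 0.238) and HBEGF (95.3 to 229.8, 1.25 ± 0.21). The 2 that fell there, LRIG1 and RNF41 (-0.43 and -0.67), both lower receptor levels and were named after their values were seen. In 22Rv1 1 of 18 was called, the adaptor GRB7 (-0.46 ± 0.116, adjusted p = 0.0337, limma).

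Among 12 EPCAM partners and proteases tested in LNCaP95, 7 rose and 2 fell at 500 nM although EPCAM itself was not called. CLDN7, a tight junction protein that binds EPCAM, rose from 1782 to 3571 (0.997 ± 0.0984, adjusted p = 3.94e-06), the protease inhibitor SPINT1 by 0.75 and the gamma-secretase subunit NCSTN by 0.73 (limma). In LNCaP 3 of 11 rose: ADAM10 (0.54 ± 0.104), TSPAN8 (4.30 to 24.5) and the matriptase gene ST14 (0.33 ± 0.0923). In 22Rv1 1 of 12, CD44, rose (0.36 ± 0.0972).

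The GPI anchor, which carries PSCA and CEACAM5, is built by enzymes of which 12 rose and 1 fell of 26 in LNCaP95 at 500 nM (median 0.16). The share called is near the 52.3% of all genes tested there. The list was led by PIGA (380 to 648, 0.76 ± 0.0871, adjusted p = 1.19e-05, limma), PGAP3 and PIGV. In LNCaP 2 rose and 6 fell of 26, with PIGH (-0.55 ± 0.119) and PGAP2 (-0.40 ± 0.091) first, and in 22Rv1 0 of 26 were called by limma, edgeR or DESeq2 (0 at an unadjusted p under 0.05). Folate genes, whose substrates FOLH1 processes, fell in 6 and rose in 2 of 9 cases in LNCaP95 (median -0.56). GGH, a lysosomal hydrolase of folate polyglutamates, fell from 1726 to 805 (-1.11 ± 0.128, adjusted p = 1.27e-05), MTHFD1 by 0.78 and the folate carrier SLC19A1 by 0.56 (limma). In LNCaP TYMS rose (1.08 ± 0.211), and in 22Rv1 2 of 9 fell, GGH (-0.66 ± 0.125) and TYMS (-0.43 ± 0.0819).

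Androgen response genes were read beside FOLH1. In LNCaP, where FOLH1 was not called, KLK3 fell from 12452 to 3290 at 500 nM (-1.94 ± 0.198, adjusted p = 9.72e-05) and TMPRSS2 from 10665 to 4543 (-1.24 ± 0.18, limma). In LNCaP95, where FOLH1 rose, KLK3 rose from 835 to 1290 (0.61 ± 0.142) and FKBP5 fell from 2088 to 1014 (-1.04 ± 0.0869). In 22Rv1, KLK3 fell (-0.51 ± 0.137).

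Other surface targets of carcinomas, a list of 33 rows, were described in the same way. In LNCaP 6 rose and 0 fell of 19 tested at 500 nM, led by GPC1 (442 to 674, 0.61 ± 0.111, adjusted p = 0.00355), CD46 (0.56 ± 0.104) and ALCAM (0.46 ± 0.0956). In 22Rv1 3 rose and 1 fell of 25. F3, the tissue factor gene, rose from 287 to 1189 (2.05 ± 0.129, adjusted p = 5.20e-06), ALCAM rose by 0.63 and PTK7 fell by 0.52 (limma). In LNCaP95 5 rose and 3 fell of 20, led by ALCAM (941 to 2073, 1.14 ± 0.0765, adjusted p = 2.72e-07, limma), LY6E (-0.95 ± 0.131) and SLC44A4 (0.62 ± 0.108). ALCAM, an adhesion molecule, was called higher in all 3 lines at 500 nM, and at 100 nM in LNCaP95 alone (adjusted p = 0.187 in LNCaP and 0.0648 in 22Rv1, limma). The shares of these lists lie beside 20.8%, 6.97% and 52.3% of all genes called at 500 nM in LNCaP, 22Rv1 and LNCaP95. For the other surface targets, the share called was below that of all genes in LNCaP95. It was above it in LNCaP and 22Rv1, with few genes tested. LY6E is also among the close relatives given above.

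The genes whose levels ran most like each antigen were found by Pearson's r of deviations from the line means over the 27 libraries, among 11761 genes, which mixes the drug response with library differences and is given as a description. STEAP1 ran closest to HBP1 (r = 0.95), LMBRD1 (0.94) and TMEM59 (0.94), and STEAP2 to TMEM106B (0.94), AFTPH and WASL (0.93 each). FOLH1 ran closest to TPRA1 (0.87), ERBB2 to STK11IP (0.92), ERBB3 to ULK2 (0.83), EPCAM to HEBP2 (0.79) and CD276 to HSPB8 (0.91). For PSCA the closest was MATN1 at 0.62, a low value in low counts. All of these points share library and scaling, and the values shown are the closest of many.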

How the data were processed

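Poly(A)-selected RNA of 27 libraries was sequenced as paired ends from directional libraries, per the labels' protocols. STAR 2.3.1z4, featureCounts and DESeq were used with the build hg19, per the submitters' processing notes. How counting treated strand was not given in these sources. The deposited table holds a normalised signal per gene and library, a read count scaled by a library factor, as the values show: in 27 of 27 libraries all values (100%) were whole multiples of 1 step within a tolerance of 1e-06, so whole reads were recovered for edgeR and DESeq2. Columns of no sample numbered 0.

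Values were tested as log2(value + 1) in R 4.3.3 by limma 3.58.1 (trend on mean level, two-sided) with Benjamini-Hochberg adjustment over all genes tested. The scale understates changes of low genes. For drug comparisons, genes needed 10 or more in at least 3 of the 9 libraries of the line. For untreated lines they needed it in at least 3 of the 9 DMSO libraries, and for differences of effects in at least 3 libraries of each line. Drug comparisons used the 9 libraries of a line; comparisons between untreated lines and differences of effects used all 27 libraries, which gives each gene 1 spread over all lines. Errors are standard errors unless stated. Alternatives were edgeR 4.0.16, DESeq2 1.42.0, other pseudocounts, no filter, equal totals, a replicate block, other sets of libraries, and each library left out. The procedure was tested on simulated data. Transcript lengths and promoters came from RefSeq or the annotation at hand by gene symbol, on another build than hg19, and promoter entries were found for 5 of the 9 members.

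The main fits of every line were unpaired, without a block, and the replicate block was run only as an alternative. In LNCaP95 same-numbered libraries of different groups deviated together in 9 of 9 pairs (r from 0.128 to 0.470, median 0.287). By these same-numbered values, the numbers look like a pairing that the main LNCaP95 results leave out. Other pairs had a median of -0.124. Deviations cancel out within each group, so that median follows largely from the same-numbered values and adds no separate evidence. The pairing comes from the data, and the labels give only a number.

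The members, the 8 gene lists and the 6 marker lists were chosen with earlier results of these data known. Named genes were the 9 members, the 3 genes with the highest correlation to each (the first given for most), and up to 3 called genes with the smallest p of each list at 500 nM; others are said to be named after their values were seen. Some items of the marker, folate, androgen response and motif lists are not reported here.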

Additional observations from a re-analysis of the deposited data

Results flagged for a closer look

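For FOLH1, STEAP1, STEAP2, CD276, ERBB3 and EPCAM the 500 nM effect differed between lines by limma's interaction test. STEAP1 rose more in LNCaP95 than in LNCaP by 1.21 and than in 22Rv1 by 1.22 on the log2 scale, and STEAP2 by 1.30 and 1.28. For FOLH1 the differences were 0.68 and 0.61. CD276 rose in LNCaP, and its effect was -0.73 lower in 22Rv1 and -0.82 lower in LNCaP95. The effects on ERBB3 (0.40) and EPCAM (0.33) were higher in LNCaP95 than in 22Rv1, with adjusted p of 0.0480 and 0.0416 by limma. All comparisons of a line share its DMSO libraries.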

How the results depend on the processing

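No result on an antigen reversed its sign while called. Of 1976 values under alternatives, over 120 results on single antigens, 1932 kept their side of the threshold, 25 lost the call and 19 gained it. The 1932 include values that changed sign while not called in either fit. ERBB3 in LNCaP at 500 nM, for example, was 0.02 and ranged from -0.08 to 0.20. FOLH1, STEAP1, STEAP2 and ERBB2 in LNCaP95 and CD276 in LNCaP were called at both doses in all 16 alternatives run. In LNCaP at 500 nM, the count of antigens called went from 1 to 2 with replicates 2 and 3 only and ranged from 1 to 2 when each library was left out, through STEAP1. In 22Rv1 the count of 0 became 1 at 500 nM with equal totals, DESeq2, all 27 libraries or only the groups compared, through EPCAM. At 100 nM it became 1 with equal totals (EPCAM) or DESeq2 (ERBB3), and ranged from 0 to 1 with each library left out. For the effect in 22Rv1 minus LNCaP, 1 became 2 with LNCaP replicates 2 and 3 only (range 1 to 2 with a library left out, through ERBB3), and for LNCaP95 minus 22Rv1, 5 became 3 without the filter and 3 with edgeR (range 3 to 4). The cause was not tested. With equal totals the median log2 difference of all genes shifted to 0.21 for untreated LNCaP95 against LNCaP, 0.11 for 22Rv1 against LNCaP and -0.10 for 22Rv1 at 100 nM. In LNCaP and 22Rv1 not every same-numbered pair had r over 0.1 (lowest -0.003 and -0.291), so the numbers were not read as a pairing there. The LNCaP median was still 0.220, and the -0.113 of other pairs again follows largely from the same-numbered values. The replicate block changed the count of called genes in LNCaP at 500 nM from 2671 to 3622. Depth limits PSCA and CEACAM5.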
